A study of Mus musculus with 2 samples.

Results

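Imprinted genes are genes read mainly from the copy inherited from the mother or mainly from the copy inherited from the father. A list of 43 such mouse genes was followed here, and its members were found as the array probes that carry their names. The array names 42 of the 43 among its 34797 gene names, with 78 of its 55681 gene probes. Rian, a noncoding RNA gene of chromosome 12, has no probe under its own name. The study hybridised RNA labelled as beta-cell RNA from C57BL/6J mice that were 6 months old and fed a high-fat diet, labelled with the dye Cy3. One array held RNA of the wild type, CSE-WT(HFD+), and the other held RNA of mice with a knockout of CSE, cystathionine gamma-lyase, an enzyme that makes hydrogen sulfide and is encoded by the gene Cth. Both arrays were from animals on the high-fat diet, so the comparison is of genotype within that diet. The labels give neither the number of animals behind an array nor the nature of the knockout allele, and no statement on either is made here.

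Most imprinted genes lie in clusters. In each cluster a control region of DNA that is methylated on the copy from only 1 parent sets which genes are read from which copy, and many clusters hold a long noncoding RNA read from the opposite copy to the coding genes beside it. Several paternally expressed genes, such as Igf2 and Dlk1, are known to favour growth, and several maternally expressed genes, such as Cdkn1c, H19 and Grb10, are known to restrain it. In the pancreatic islet the clusters best known for a part in beta-cell number are those of Cdkn1c and of Dlk1 and Meg3, and Rasgrf1, Gnas and Nnat are known for roles in beta-cell growth or insulin secretion.

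Each genotype was measured on 1 array, so the differences have no replicates behind them and no p-value is given. Values are processed intensities as the scanner software wrote them. Differences are CSE-KO minus CSE-WT on the log2 scale, after each array was divided by its own 75th percentile, which lay at 519 for CSE-WT and 540 in CSE-KO. Each difference is followed by a technical spot SD, which is the spread of the difference among repeated spots of 1 probe at that brightness. It fell from 0.22 at a dim scaled level of -3 to 0.04 at a bright level of 3, and it holds no variation between animals. A probe is called measured where both arrays had it well above background, as was the case for 62 of the 78 probes and 35 of the 42 genes. The probes of Cth were above background on neither array, with 13.5 and 12.8 in CSE-WT against 3.15 and 3.68 in CSE-KO, so they place no fold on the targeted gene.

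All 13 beta-cell markers were measured, among them Ins1, Pdx1 and Mafa, with a median difference of -0.06 (each gene by its brightest probe, as in the lists that follow). The 12 markers of other endocrine cells and the 13 of acinar cells were measured as well, so the RNA also held that of other islet and pancreatic cells. Of the 12 measured markers of stellate cells and fibroblasts 11 were higher in CSE-KO, with a median of 0.34 and a summed intensity of 30898 against 35500, while Lum, Pdgfra and Fn1 were not measured. By their brightest probes all 10 genes of proliferation were higher on that array, with a median of 1.17, though Cdk1 had another measured probe at -2.32. The part of these cell types and of dividing cells in the values below was not tested. In RNA of whole tissue, more cells of a type and more RNA per cell cannot be told apart.

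The largest set of like differences among the imprinted genes lay in the Dlk1-Meg3 cluster of chromosome 12. It holds the paternally expressed coding gene Dlk1 and a row of maternally expressed noncoding RNAs, of which the array names Meg3 and Mirg. Meg3 is a long noncoding RNA known to restrain cell growth and to be enriched in beta cells within the islet, and Mirg is the noncoding host of many microRNAs. The 60-base probes that carried the finding are given below, 5′ to 3′ in the order of transcription, as in the array files. They lie on the plus strand at chr12:110799558-110799617 and chr12:110809678-110809737 for Meg3 and at chr12:110979653-110979712 and chr12:110987569-110987628 for Mirg, in build mm9. No annotation of that build was used here, so exons are not assigned.
Meg3 1: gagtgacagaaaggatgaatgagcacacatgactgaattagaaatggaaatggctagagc
Meg3 2: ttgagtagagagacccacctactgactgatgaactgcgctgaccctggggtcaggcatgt
Mirg 1: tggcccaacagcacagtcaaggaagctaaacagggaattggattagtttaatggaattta
Mirg 2: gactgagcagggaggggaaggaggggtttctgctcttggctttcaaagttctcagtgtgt

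The Meg3 and Mirg probes shown were all brighter in CSE-KO. Probe Meg3 1 read 397 in CSE-WT and 680 in CSE-KO, a difference of 0.72 ± 0.08 (technical spot SD) or 1.65-fold. Probe Meg3 2 read 12923 and 23738, a difference of 0.82 ± 0.04 or 1.77-fold. Both differences were past 3 spot SDs. At the level of Meg3 2, 4 of 1033 measured probes of about the same brightness (within 0.5 log2 units) lay as far apart in either direction. That is 0.387%, the probe itself included. For Meg3 1 the count was 57 of 3315, or 1.72%. For Mirg 1 the intensities were 758 and 1634, a difference of 1.05 ± 0.06 or 2.08-fold. For Mirg 2 they were 2414 and 4036, a difference of 0.69 ± 0.05. Among the cluster's member probes measured on both arrays, Mirg 1 was the only one past 2-fold, and 7 of 3104 probes of its brightness (0.226%) were as far apart.

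Dlk1, which encodes a membrane protein related to Notch ligands, went the other way. Its brighter probe, at chr12:110698721-110698781, read 198 for CSE-WT and 129 in CSE-KO, a difference of -0.67 ± 0.13 or 1.59-fold in favour of CSE-WT. Its dimmer probe read 28.2 for CSE-WT and 8.80 in CSE-KO, where it was not well above background. That gives a bound of 2.02-fold higher in CSE-WT, the bright level being set against the lowest level well above background on the other array. The bound makes no allowance for the spot SD. So both Dlk1 probes were lower and the Meg3 and Mirg probes higher in CSE-KO. For the brighter Dlk1 probe, 5.53% of the 3562 measured probes of its brightness were at least as far apart, a larger share than for any Meg3 or Mirg probe. With a normexp background correction and quantile normalization its difference was -0.40.

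**Figure D1:**
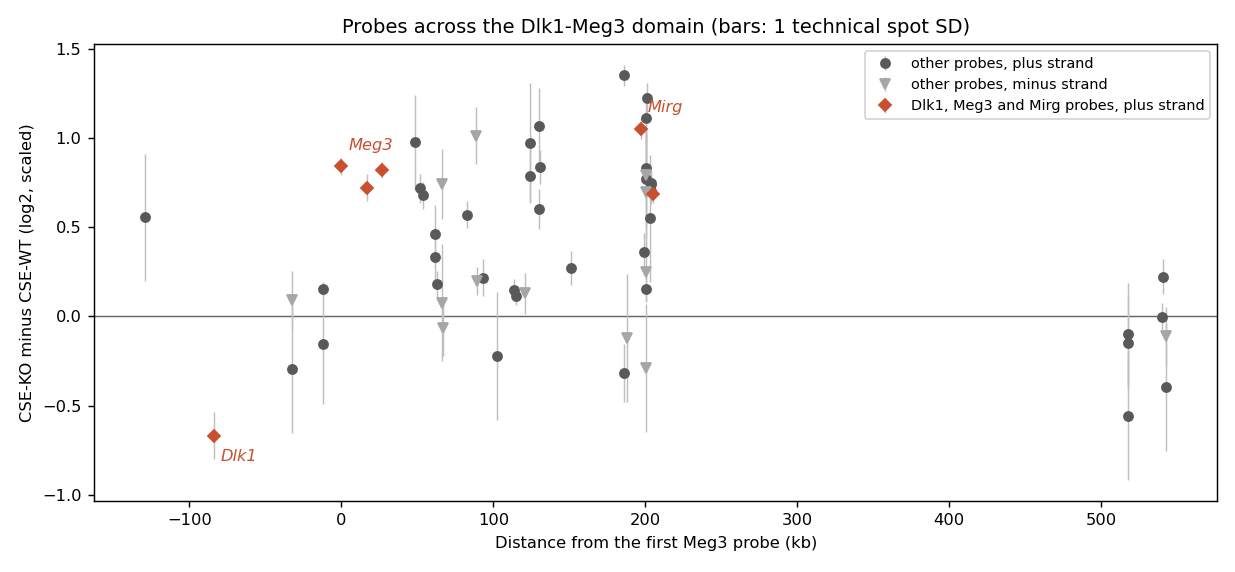
Difference between the arrays (CSE-KO minus CSE-WT, log2, scaled) of each measured probe across the Dlk1-Meg3 cluster, by distance in kb from the first Meg3 probe; diamonds are Dlk1, Meg3 and Mirg, circles and triangles are probes of other names on the plus and minus strand, and bars are 1 technical spot SD. The probes from Meg3 to Mirg lie mostly above 0, with 27 of 29 other plus-strand probes higher, while the Dlk1 probe lies at -0.67. Of the 6 plus-strand probes beyond Mirg 5 lie below 0, 1 of them at -0.00046, and all 6 are within 3 spot SDs.

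RefSeq (assembly GRCm38.p6) places Rtl1 and Rian between Meg3 and Mirg. From the start of Meg3 to the end of Mirg it lists 60 microRNA genes and 19 genes of small nucleolar RNAs. None of the microRNA genes has a probe of its name on the array. The transcripts of this stretch are thought to be read as a long continuous unit. It was therefore examined over the 205 kb from the first Meg3 probe to the last Mirg probe, a choice made after the values were seen. The array holds 43 probes of other names on the plus strand there, of which 29 were measured. Of these 27 were higher and 2 lower in CSE-KO, with a median difference of 0.68 and a range of -0.32 to 1.35. Past 3 technical spot SDs were 16 of the 29, all higher. The 29 hold probes of named transcripts and probes that the array names only by a genomic interval. Of the 5897 measured interval probes of the array, 54.6% were higher and 8.53% were past 3 spot SDs on that side. Over all measured probes these shares were 49.2% and 9.85%. A further 6 of the 43 were above background in CSE-KO alone and 0 in CSE-WT alone, while over all gene probes of the array the counts were 2337 and 877. Between the Rtl1 probe and the first Mirg probe, where RefSeq's order places Rian, 17 of 19 measured plus-strand probes were higher, with a median of 0.57.

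Among probes measured on both arrays, the flanks and the opposite strand had lower medians. In the 400 kb before Meg3 the 4 measured plus-strand probes of names other than Dlk1 ran from -0.30 to 0.56, with a median of 0.00061. The brighter Dlk1 probe, at -0.67, lies there too and is not counted among them. In the 400 kb after Mirg, 1 of 6 measured plus-strand probes was higher, with a median of -0.12. None of these 6 was past 3 spot SDs, and those at -0.56 and -0.10 overlap. Not among the 6 is the plus-strand probe of 4930511J24Rik, which lies in the same flank. It read 106 in CSE-WT and 2.85 in CSE-KO and was above background in CSE-WT alone. Its bound was 7.58-fold higher there, with no allowance for the spot SD. In that flank 1 plus-strand probe was above background in CSE-KO alone, with no fold to give. On the minus strand within the stretch 8 of 11 were higher, with a median of 0.20. Past 3 spot SDs were 2 of the 11, both higher, and the highest lay at 1.01. A further 4 minus-strand probes were above background in CSE-KO alone and 1 in CSE-WT alone. Differences between these small groups were not tested. Among the named transcripts of the stretch, 6430411K18Rik, which RefSeq also lists as PEG11as, the antisense partner of Rtl1, read 37.6 and 76.9, a difference of 0.98 ± 0.27. The 2 probes of 1110006E14Rik read 288 and 493, and 471 and 785. EU616813 read 725 and 1927, a difference of 1.35 ± 0.06 and the highest of the 29. Rtl1 itself, on the minus strand, and Dio3 beyond Mirg, both paternally expressed coding genes, were above background on neither array.

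The probes of the stretch are not all separate measurements. The pair below, at chr12:110986374-110986433 and chr12:110986389-110986448, shares the 45 bases in capitals and is shown for that reason. The first read 551 and 961 and the second 541 and 939, differences of 0.75 and 0.74.
Overlapping 1: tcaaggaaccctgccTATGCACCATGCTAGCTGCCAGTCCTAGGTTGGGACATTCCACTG
Overlapping 2: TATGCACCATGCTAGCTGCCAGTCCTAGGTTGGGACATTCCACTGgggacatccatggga

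The same rule, which takes the probes of other names between the outermost member probes of a cluster, was applied to every cluster. On both strands together the median was 0.51 over 44 measured probes from Dlk1 to Mirg, of which 37 were higher. It was 0.03 over 48 probes of the Snrpn-Ube3a cluster, 0.04 over 16 of the Peg10-Sgce cluster and -0.20 over 8 of the Kcnq1 cluster. The others held 2 measured probes or fewer. The plus-strand stretch from Meg3 to Mirg counted 27 higher and 2 lower probes under each of 7 other scalings, with a median between 0.40 with a normexp background correction and 0.71 with median scaling.

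The promoter of Meg3 is known to hold a cAMP response element, whose full palindrome is TGACGTCA. The RefSeq window around the start of Meg3, chr12:109540746-109541045 on the plus strand of GRCm38.p6, is printed because it holds that motif 57 bases before the start. Capitals mark it and the only match in the window to TGCCGC, the motif read by the imprint-keeping zinc finger protein ZFP57, here on the opposite strand as GCGGCA.
Meg3 promoter: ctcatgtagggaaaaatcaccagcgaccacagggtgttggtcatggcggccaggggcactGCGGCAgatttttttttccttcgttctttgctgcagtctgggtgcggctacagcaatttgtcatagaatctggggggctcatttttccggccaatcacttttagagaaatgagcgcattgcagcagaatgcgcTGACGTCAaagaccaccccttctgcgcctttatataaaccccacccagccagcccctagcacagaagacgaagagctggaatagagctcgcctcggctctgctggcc

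RefSeq windows of 300 bases were found for 35 of the 43 genes, 52 windows in all. TGACGTCA, which reads the same on both strands, lay in the windows of Meg3, Peg3 and Usp29, 3 of 52, against 1.79% of all 32851 windows. The windows of Peg3 and Usp29 overlap and share 1 copy of the motif. The probes described for these 3 genes were all higher in CSE-KO, by 0.22 to 0.82. Whether the motif bears on those differences was not tested. TGCCGC, searched on both strands, lay in 12 of the 52 windows, 23.1%, against 11.6% of all windows, in 11 genes that included Meg3, Mest, Nnat, Plagl1, Snrpn and Grb10. By their brightest probes the genes with TGCCGC lay on both sides of 0, with Nnat at -0.46 and Plagl1 at 0.11. These matches are descriptions of the letters and were set against no test.

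H19, a maternally expressed noncoding RNA beside Igf2 on chromosome 7, has 7 probes that gave different answers. They are shown because neighbouring stretches of 1 RNA read so unlike. All lie on the minus strand between chr7:149761492 and chr7:149762476 (mm9) and are numbered in the direction of transcription. H19 2 and H19 3 abut, ending at 149762173 and beginning at 149762172.
H19 1: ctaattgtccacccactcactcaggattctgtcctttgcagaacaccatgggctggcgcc
H19 2: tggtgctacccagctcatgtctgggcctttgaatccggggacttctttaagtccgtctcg
H19 3: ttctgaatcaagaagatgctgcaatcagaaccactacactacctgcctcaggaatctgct
H19 4: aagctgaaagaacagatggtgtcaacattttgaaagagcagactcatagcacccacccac
H19 5: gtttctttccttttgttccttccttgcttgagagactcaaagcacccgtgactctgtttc
H19 6: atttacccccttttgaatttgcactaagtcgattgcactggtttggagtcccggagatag
H19 7: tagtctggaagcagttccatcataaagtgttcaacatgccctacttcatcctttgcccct

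Probe H19 3 read 426 for CSE-WT and 1022 in CSE-KO, a difference of 1.21 ± 0.07 or 2.31-fold, while the abutting H19 2 was above background on neither, at 3.72 and 3.95. H19 5 read 97.6 and 111, a difference of 0.13 ± 0.16. H19 1 read 23.4 and 27.5, a difference of 0.18 ± 0.36, and H19 7 read 31.6 and 18.6, a difference of -0.82 ± 0.36. Of the 4 measured probes, therefore, only H19 3 was past 3 spot SDs, and H19 7 lay in the opposite direction. H19 4 and H19 6 were above background on neither array. The spot of H19 3 lies in the outermost column of the slide, in an area where the dim neighbouring spots were brighter in CSE-KO, with median intensities of 5.34 and 12.5 and a median difference of 1.32. The 10 neighbours with an intensity of at least 200 on both arrays had a median of -0.04 and ranged from -0.29 to 0.25. Igf2, the growth factor gene paired with H19, read 11.7 and 16.1 on its 1 probe and was above background in CSE-KO alone, with no fold to give. The H19 differences therefore rest on 1 probe.

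**Figure D2:**
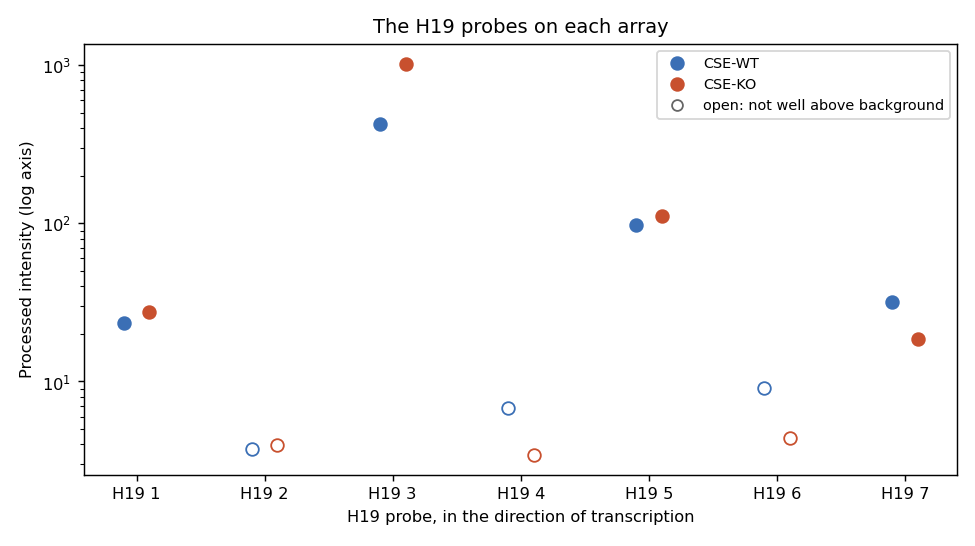
Processed intensity (log axis) of the 7 H19 probes, in the direction of transcription, on the CSE-WT and CSE-KO arrays; filled points were well above background on both arrays and open points on neither. H19 3 reads 426 and 1022, the abutting H19 2 lies near 4 on both arrays, and H19 7 is the only measured probe that is lower in CSE-KO.

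The Kcnq1 cluster of chromosome 7 holds maternally expressed coding genes, among them Cdkn1c, an inhibitor of the cell cycle, and the paternally expressed noncoding RNA Kcnq1ot1. Kcnq1ot1 read 53.6 and 109 at chr7:150440140-150440199, a difference of 0.96 ± 0.18 or 1.95-fold, and of 0.54 with a normexp correction. Of 3784 measured probes of about that brightness, 158 (4.18%) were at least as far apart. The second Kcnq1ot1 probe, at chr7:150434020-150434079, read 9.37 and 22.0 and was above background in CSE-KO alone. Its bound was 1.20-fold higher there, with no allowance for the spot SD. Both are on the minus strand, as the RNA is, and are shown as the only probes of that name and strand.
Kcnq1ot1 1: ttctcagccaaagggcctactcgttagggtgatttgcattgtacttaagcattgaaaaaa
Kcnq1ot1 2: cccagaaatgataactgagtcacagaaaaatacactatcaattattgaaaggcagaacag

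Further probes that the array spells KCNQ1ot1 lie on the plus strand and are not counted as members. The 2 of them that were measured went the other way, at -0.22 ± 0.08 and -0.36 ± 0.09. Cdkn1c read 151 and 117, a difference of -0.42 ± 0.15, within 3 spot SDs. Slc22a18, which encodes a membrane transporter, read 177 and 274, a difference of 0.57 ± 0.11. The remaining measured genes of the cluster, Cd81, Tssc4, Nap1l4 and the potassium channel gene Kcnq1, lay between -0.10 and 0.09 on all 6 of their probes and within 3 spot SDs. Phlda2 and Ascl2, known mainly from the placenta, were above background on neither array. In this cluster the noncoding RNA and Slc22a18 were higher and Cdkn1c lay lower, while the bright genes Tssc4 (13203 and 14014) and Cd81 (9340 and 10083) read alike on both arrays.

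Gnas, on chromosome 2, encodes the stimulatory G protein subunit through which hormone receptors raise cyclic AMP, along with other transcripts that start at other promoters and differ in imprinting. Its brightest probe read 95299 and 99474, a difference of 0.01 ± 0.05, and was the brightest of all member probes. Another bright probe read 10769 and 9910, a difference of -0.18 ± 0.04. A dim probe at chr2:174122337-174122396 read 35.7 and 102, a difference of 1.46 ± 0.24 or 2.75-fold, the largest among the members. With a normexp correction that difference was 0.70. Of 3806 measured probes of about its brightness, 73 (1.92%) were at least as far apart. The fourth read 13.5 and 26.1 and was above background in CSE-KO alone. Its bound was 1.42-fold higher there, with no allowance for the spot SD. Gnas was thus the 1 gene with probes past 3 spot SDs in both directions. Which transcripts the probes read was not determined here.

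Inpp5f encodes an inositol phosphatase, and only a brain transcript of it is known to be imprinted. Its probe at chr7:135813452-135813511 read 172 for CSE-WT and 80.5 in CSE-KO, a difference of -1.15 ± 0.15 or 2.22-fold in favour of CSE-WT. Its other probe read 54.4 and 49.7, a difference of -0.18 ± 0.27. The brighter Inpp5f probe was the 1 member probe past 2-fold on the lower side, and with normexp and quantile normalization it stood at -0.73. Of 3659 measured probes of about its brightness, 89 (2.43%) were at least as far apart. Nnat, a paternally expressed proteolipid of the endoplasmic reticulum, was lower on both probes, with 597 and 450 on one (-0.46 ± 0.08) and 457 and 372 on the other (-0.35 ± 0.08). Mcts2, a gene copied into an intron of H13, read 862 and 687, a difference of -0.38 ± 0.07. Impact, a regulator of translation, read 5702 and 4805, a difference of -0.30 ± 0.04, and its dim probe lay at -0.10 ± 0.26.

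Plagl1, a zinc finger transcription factor known from transient neonatal diabetes, was higher on all 4 probes. The values ran from 0.11 ± 0.04 on the brightest, which read 4533 and 5087, to 0.32 ± 0.07, and 2 of the 4 were past 3 spot SDs. Rasgrf1, an exchange factor for Ras that is known to bear on islet growth, differed between probes: the bright one read 5650 and 5264 (-0.16 ± 0.04) and the dim one 152 and 204 (0.37 ± 0.12, just within 3 spot SDs). Zrsr1, a copy of a splicing factor gene, read 2579 and 2738, a difference of 0.03 ± 0.05.

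The Peg3 cluster held small differences in 1 direction for its paternally expressed genes. Peg3, a zinc finger protein, read 1581 and 1911 on one probe (0.22 ± 0.05) and 554 and 707 on the other (0.29 ± 0.07). Usp29, which shares its promoter region, read 356 and 446 (0.27 ± 0.08). All 3 probes were past 3 spot SDs and none past 2-fold. The maternally expressed Zim1 lay at -0.12 ± 0.19 and -0.16 ± 0.36.

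In the Snrpn-Ube3a cluster, which is known from Prader-Willi and Angelman syndromes, the bright probes read alike on both arrays. Snrpn, a splicing protein gene, read 2598 and 2689 (-0.01 ± 0.05) on its brightest probe and 0.12 ± 0.06 on another, while its dim probe read 157 and 106 (-0.62 ± 0.15). Ndn, a gene of the MAGE family, read 2270 and 2323 (-0.02 ± 0.05), and the ubiquitin ligase gene Ube3a read 436 and 445 (-0.02 ± 0.08). The dim probes of Magel2 (28.0 and 18.4) and Peg12 (36.6 and 22.0) lay at -0.66 and -0.79, each with a spot SD of 0.36 and within 3 spot SDs. The second probes of Peg12 and Ube3a were above background on neither array.

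In the Peg10-Sgce cluster of chromosome 6, Sgce, which encodes epsilon-sarcoglycan, read 711 and 528, a difference of -0.49 ± 0.07. Ppp1r9a lay at -0.10 ± 0.06 and -0.41 ± 0.21 and Asb4 at -0.31 ± 0.12 and 0.12 ± 0.29, all within 3 spot SDs. The second Asb4 probe lies in a local bright area of the CSE-KO array. Peg10 and Calcr were above background on neither array. The paternally expressed Mest, whose level is known to follow fat expansion, gave 0.01, 0.10 and -0.20 on its 3 probes, with 10 spots of the first running from -0.27 to 0.19. Copg2 lay at -0.03 and 0.11, and Klf14 was not above background.

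Igf2r, the receptor that takes up and degrades the Igf2 growth factor, was read by 10 spots of 1 probe, with intensities of 1781 to 2015 for CSE-WT and 2045 to 2179 in CSE-KO. The scaled differences of the spots, 1 of which lies in a local bright area, ran from -0.03 to 0.21 with a mean of 0.10 and an SD of 0.07. Slc22a3, of the same cluster, was not above background. Grb10, an adaptor that dampens insulin receptor signalling, read 68.4 and 81.8 (0.20 ± 0.19). Its neighbour Ddc, the enzyme that makes dopamine and serotonin, read 64560 and 68629 (0.03 ± 0.05) and 8338 and 8450 (-0.04 ± 0.04) and was among the brightest members.

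**Figure D3:**
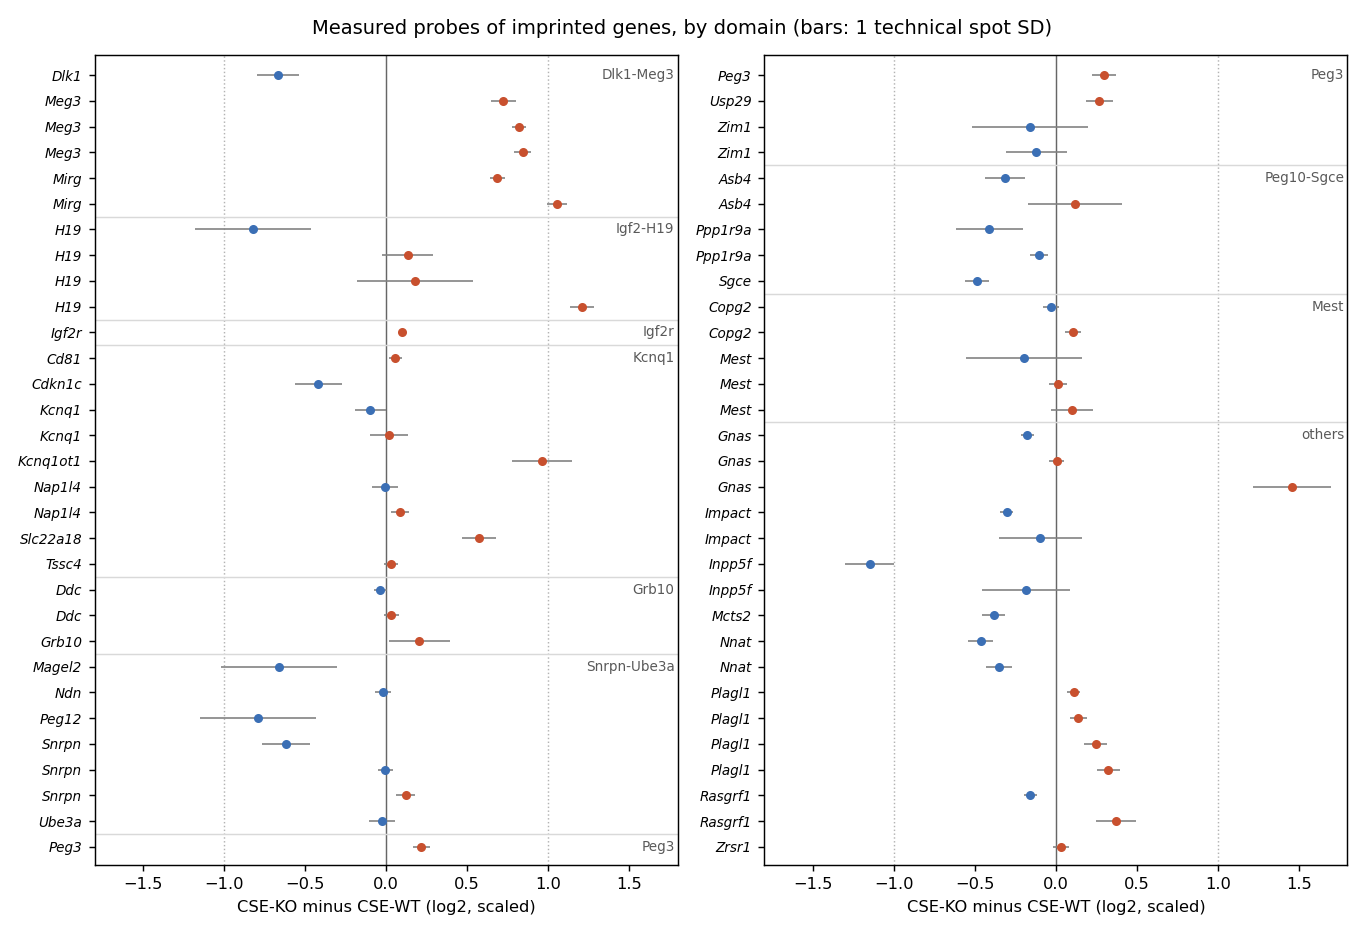
Difference between the arrays (CSE-KO minus CSE-WT, log2, scaled) of the 62 measured probes of imprinted genes, a line for each probe, grouped by cluster; bars are 1 technical spot SD and dotted lines mark 2-fold. Meg3 and Mirg lie together between 0.69 and 1.05, while H19, Gnas and Snrpn have probes on both sides of 0.

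Over all measured member probes, 33 were higher and 29 lower in CSE-KO, with a median of 0.01 against -0.0039 for the 30838 measured gene probes of the array. Past 2-fold were 3 on the higher side (Gnas, H19 and Mirg) and 1 on the lower side (Inpp5f), against 0.778% and 0.953% of all measured probes. Either way that is 4 of 62, against 1.73%. With a normexp background correction, which pulls dim probes together, 2 were past 2-fold, those of H19 and Mirg. Past 3 technical spot SDs were 15 on the higher and 10 on the lower side, 40.3% of the 62, against 9.85% and 11.3%, or 21.2% in all. Without Meg3 and Mirg these counts were 10 and 10 of 57. The median absolute difference was 0.19 for the members and 0.14 for all measured probes. Of the 78 member probes 4 were above background on 1 array only, against 5.77% of all gene probes. Of the 12 member genes with the highest levels, Meg3 and Mirg stood at 0.82 and 0.69 and the other 10 lay within 0.303 of 0.

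**Figure D4:**
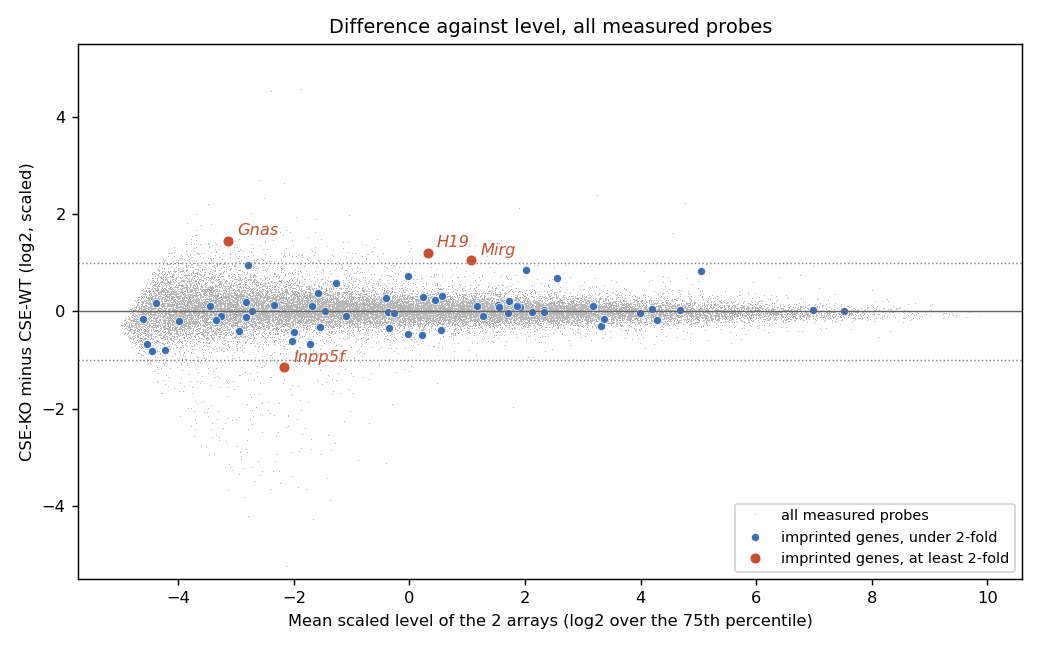
Difference between the arrays (CSE-KO minus CSE-WT, log2, scaled) against the mean scaled level of all 30838 measured probes (grey) and the 62 of imprinted genes (coloured); dotted lines mark 2-fold. The 4 member probes past 2-fold are named, and at high levels the Meg3 probe at 0.82 lies outside the main band of probes.

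By gene, each taken by its brightest measured probe, 18 were higher and 17 lower, with a median of 0.01. The genes that textbooks give as maternally expressed were 9 higher and 6 lower of 15, with a median of 0.05. Which allele was read in this RNA was not determined, so the groups are by textbook label only. The paternally expressed ones were 6 higher and 10 lower of 16, with a median of -0.09. Past 3 spot SDs were 8 of the 27 measured probes of the maternal group, all higher. In the paternal group they were 14 of 27, 6 higher and 8 lower. Over all measured probes the shares were 9.85% higher and 11.3% lower. Of the 8 maternal probes, 5 were those of Meg3 and Mirg, so the count of the maternal group rests largely on 1 cluster. By kind of transcript, the 4 measured noncoding RNA genes, Meg3, Mirg, H19 and Kcnq1ot1, were all higher, with a median of 0.89. Past 3 spot SDs on the higher side were 7 of their 10 measured probes, against 9.85% of all measured probes. Of the 7, 5 were again those of Meg3 and Mirg, so this count too rests largely on 1 cluster. The others were H19 3, which lies in a local bright area, and the dim Kcnq1ot1 1. H19 7, at -0.82, was the 1 measured probe among the 10 that lay lower. Imprinted noncoding RNAs outside the list gave other values, with Peg13 at -0.02 ± 0.04 and Airn at 0.14 ± 0.07 on its brightest probe and at -0.24 ± 0.15 and 0.82 ± 0.14 on its other measured probes. The 31 other genes were 14 higher and 17 lower, with a median of -0.02. Of the 19 genes with several measured probes, 9 had all of them on the same side.

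**Figure D5:**
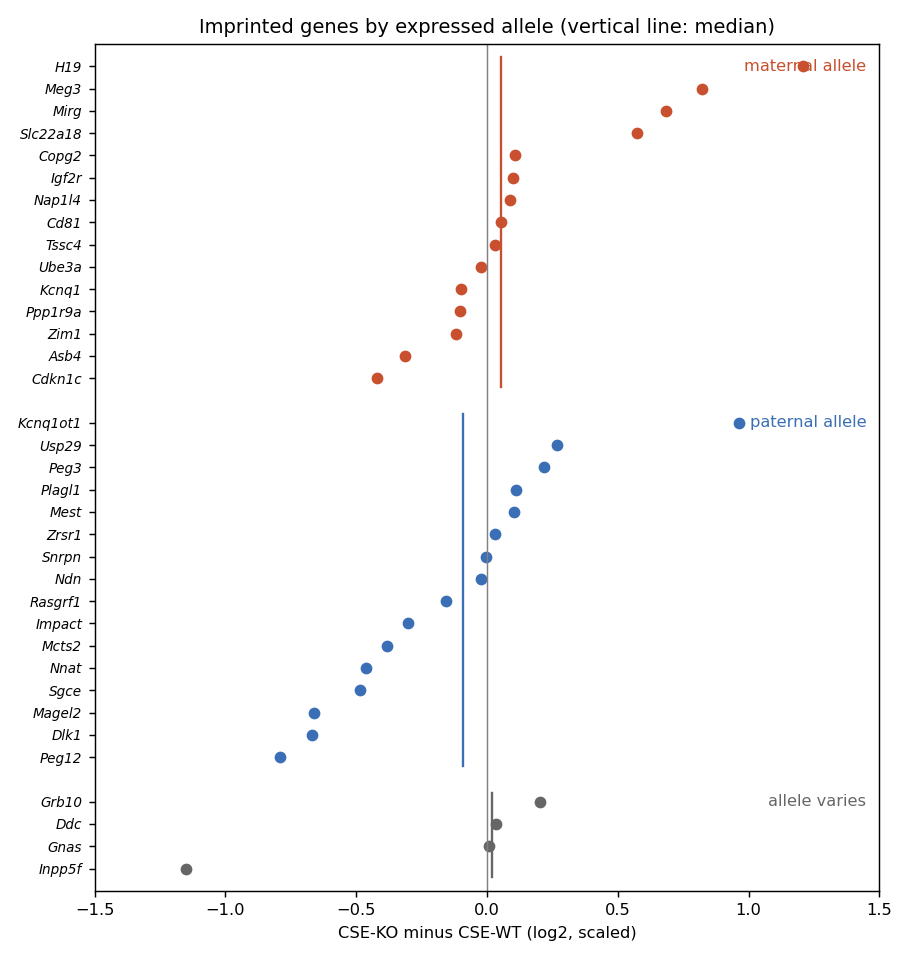
Difference between the arrays (CSE-KO minus CSE-WT, log2, scaled) of each measured imprinted gene by its brightest probe, sorted within the genes known as maternally expressed, paternally expressed or varying with tissue or transcript; vertical lines are medians of 0.05, -0.09 and 0.02. H19, Meg3 and Mirg lead the maternal group and Kcnq1ot1 the paternal group, all 4 of them noncoding RNAs.

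Among 41 further imprinted genes, 29 were measured, by their brightest probes 14 higher and 15 lower, with a median of -0.02 and 0 past 2-fold. The lowest were Osbpl5 (-0.32), Cntn3 (-0.28) and Cobl (-0.23) and the highest Slc22a2 (0.56), Art5 (0.47) and Mkrn3 (0.39). Of 22 genes whose proteins set or keep imprints, 21 were measured, 15 higher and 6 lower, with a median of 0.09. Uhrf1, which guides the copying of DNA methylation at replication, read 45.4 and 155, a difference of 1.71 ± 0.17, the only gene of that list past 2-fold by its brightest probe. The 10 proliferation genes were higher as well by their brightest probes, with a median of 1.17, and their part in the Uhrf1 value was not tested. The methyltransferase gene Dnmt1 read 149 and 191 (0.30 ± 0.13), within 3 spot SDs, and Ezh2, of the Polycomb complex, 94.2 and 123 (0.33 ± 0.16). Zfp57, the imprint-keeping zinc finger gene, read 5464 and 6678 (0.23 ± 0.04) on its brightest probe and lay at 1.21 on its other. Its partner gene Trim28 read 4187 and 4974 (0.19 ± 0.04) on its brightest probe and lay at -0.28 on its other, so the probes of Trim28 disagree in sign. The lowest by their brightest probes were Cbx5 (-0.72), Suz12 (-0.17) and Smchd1 (-0.11). The other Smchd1 probe lay at 0.25, so its probes disagree in sign as well.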

How the data were processed

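The 2 arrays are 1-colour Agilent arrays with 60-base probes. The deposited scanner files give, per the file headers, the processed intensity of each spot from Agilent Feature Extraction 10.7.1.1, background-subtracted by that software, and probe coordinates in mm9. Version 9.5.1.1 of it is named in the submitters' processing notes. The authors' deposited table holds normalized intensity values with the same median (37.7) in both columns. Each of its columns correlated at 0.9999 with its own array's scanner values. Its normalization method is not stated there.

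Spots with an outlier mark were left out, which touched no member spot, and no gene spot was saturated. The log2 intensity was averaged over the spots of a probe, and scaled by subtracting each array's 75th percentile, taken over gene probes. Of the gene probes, 57.0% (CSE-WT) and 59.6% (CSE-KO) were above background. The technical spot SD came from 268 measured probes printed 10 times, by level, divided by the square root of the number of spots. With 1 array per genotype there was no test, and 2-fold and 3 spot SDs served as marks of size. Local bright areas are those where the dim spots within 3 rows and columns had a median difference over 0.5 log2 units. Python 3.11.15 and limma 3.58.1 (R 4.3.3) were used, and the steps were tested on simulated data.

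All 43 names are in RefSeq's table of GRCm38.p6, from which the promoter window came, while probe sequences came from the array files. Every member was to be accounted for, with full values for those past 2-fold, above background on 1 array only, with probes that disagree, or among the 12 brightest. The further lists are given by counts and their 3 highest and lowest genes, besides a few regulators named after their values were seen. The members, lists and rules were chosen with earlier results of these data known. The sequence and values of 1 Meg3 probe are not reported here, although the counts and plots include it.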

Additional observations from a re-analysis of the deposited data

How the results depend on the processing

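With 1 array per genotype no replicate could be left out. No paired analysis was possible because each genotype has a single array. Each result was recomputed under up to 13 alternatives. The median over the measured member probes was 0.01 and ran from -0.02 (spike-in scaling) to 0.05 (median scaling), and the median over member genes from -0.03 to 0.05. The median of all measured probes moved with the same scalings, from -0.04 (spike-in) to 0.03 (median scaling). The count of member probes past 2-fold, 4, was 2 with a normexp background correction, scaled either way, 2 among probes above the median level, 10 without the filter on dim probes and 3 without local bright areas. The matching count over all probes, 534, was 179 and 177 with normexp, 33 above the median level, 4540 without the filter and 450 without local bright areas. Of the measured member probes, 14 of 62 turned sign under some scaling, and 0 of the 25 past 3 spot SDs. Over the scalings Meg3 2 ran from 0.79 to 0.94 and Mirg 1 from 1.02 to 1.09, H19 3 from 1.17 to 1.24, Inpp5f from -1.20 to -0.73 and the dim Gnas probe from 0.70 to 1.49. The stretch from Meg3 to Mirg, a choice added after the data were seen, had 26 higher and 2 lower without local bright areas. Dim probes are limited by their signal over background, with a spot SD of 0.36 for the dimmest.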
